A study of Mus musculus with 9 samples.

Results

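The genes described here carry antigen to the cell surface on MHC class I molecules: the heavy chains H2-K1 and H2-D1, their light chain B2m, the peptide transporter subunits Tap1 and Tap2, the loading factor Tapbp, the immunoproteasome subunits Psmb8, Psmb9 and Psmb10, and the transcriptional activator Nlrc5. They were chosen as every non-control array probe whose transcript accession belongs to one of these symbols, which gave 10 genes of 32451 genes or accessions on the array, and 12 probes of 39429. H2-K1 and Nlrc5 had 2 probes each and the others 1. All 12 probes were well above background on all 9 arrays.

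The RNA came from spleens of female BALB/c mice and was hybridised to 1-colour whole-genome mouse arrays, 3 in each of 3 groups. The groups were mice with Graves' disease (GD) on a normal dietary selenium supply (normal Se GD), mice with GD on a low supply (low Se GD) and mice without GD on a low supply (low Se non-GD). Graves' disease is a thyroid autoimmune disorder. No group without GD on a normal supply was analysed here, so diet was compared only among mice with GD and disease only on the low supply. The step from low Se non-GD to normal Se GD changes diet and disease together. The sources used here state neither how the disease was brought about nor whether each array is a separate mouse, so p-values measure only the spread between these arrays.

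Proteasomes cut cytosolic proteins into peptides, and under interferon signalling the subunits Psmb8, Psmb9 and Psmb10 take the place of the constitutive catalytic subunits. Tap1 and Tap2 form the transporter that moves peptides into the endoplasmic reticulum, where Tapbp (tapasin) bridges it to the heavy chain paired with B2m. Nlrc5 is a nuclear activator of these genes that is recruited to their promoters through factors bound to conserved boxes. In the spleen nearly all nucleated cells carry class I molecules, and lymphocytes and antigen-presenting cells carry many.

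Values are log2 signals relative to each array's 75th percentile (scaled log2 signal), so 0 is the level of that percentile. Levels of different probes cannot be set against each other. Differences were tested with limma across 26331 genes, and a gene is called where its Benjamini-Hochberg adjusted p is under 0.05.

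Some arrays stood apart. On 8 arrays 72.6% to 82.6% of spots were well above background, but on normal Se GD replicate 3 it was 58.4%. That array was also scanned alone, while the 3 low Se non-GD arrays shared a scan with low Se GD replicate 1, and low Se GD replicates 2 and 3 shared one with normal Se GD replicates 1 and 2. No scan held both normal Se GD and low Se non-GD arrays. Where the scan is fitted as a fixed block, low Se GD replicate 1 is thus the only array linking low Se non-GD to the other groups. For 78.3% of 18544 genes the level in low Se non-GD replicate 3 was between those of its 2 group mates, and for 68.9% that in low Se GD replicate 2 was; these are called the in-between arrays. The probe for 28S ribosomal RNA (Rn28s1) averaged 5.51 ± 0.54 in normal Se GD, 4.24 ± 1.30 in low Se GD and 0.61 ± 0.19 in low Se non-GD (scaled log2 signal, SD, n = 3 each). A spike-in control probe (E1A) averaged 1.56 ± 0.76 in normal Se GD, 1.74 ± 0.75 in low Se GD and 5.31 ± 0.57 in low Se non-GD (SD, n = 3 each). Whether these differences bear on the results was not tested.

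Against low Se non-GD spleens, 4 of the 10 genes were called higher in normal Se GD spleens (40.0%) and none lower, while 18.9% of all genes tested were called higher and 13.4% lower. The 4 were Nlrc5, B2m, H2-K1 and Psmb9, and without both in-between arrays, which leaves 2 in each low Se group, 1 of the 4 was called, Nlrc5. Between the low Se groups, 1 gene of the 10 was called higher in GD spleens than in non-GD spleens, Nlrc5, and none lower, against 12.7% and 12.2% of all genes. Between normal Se GD and low Se GD spleens none of the 10 was called, against 0.976% of all genes higher and 0.292% lower. There, limma gave an unadjusted p under 0.05 for 5 of the 10 genes, all higher in normal Se GD, against 12.7% of all genes higher and 6.71% lower. Over the 12 probes, the counts called higher were 4 for normal Se GD and 1 for low Se GD, each against low Se non-GD, and 0 for normal Se GD against low Se GD, where 20.9%, 13.3% and 1.8% of all probes were. The comparisons share arrays, so their counts are not independent of each other. In whole spleen RNA, fewer cells of a type and less RNA per cell cannot be told apart.

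**Figure D1:**
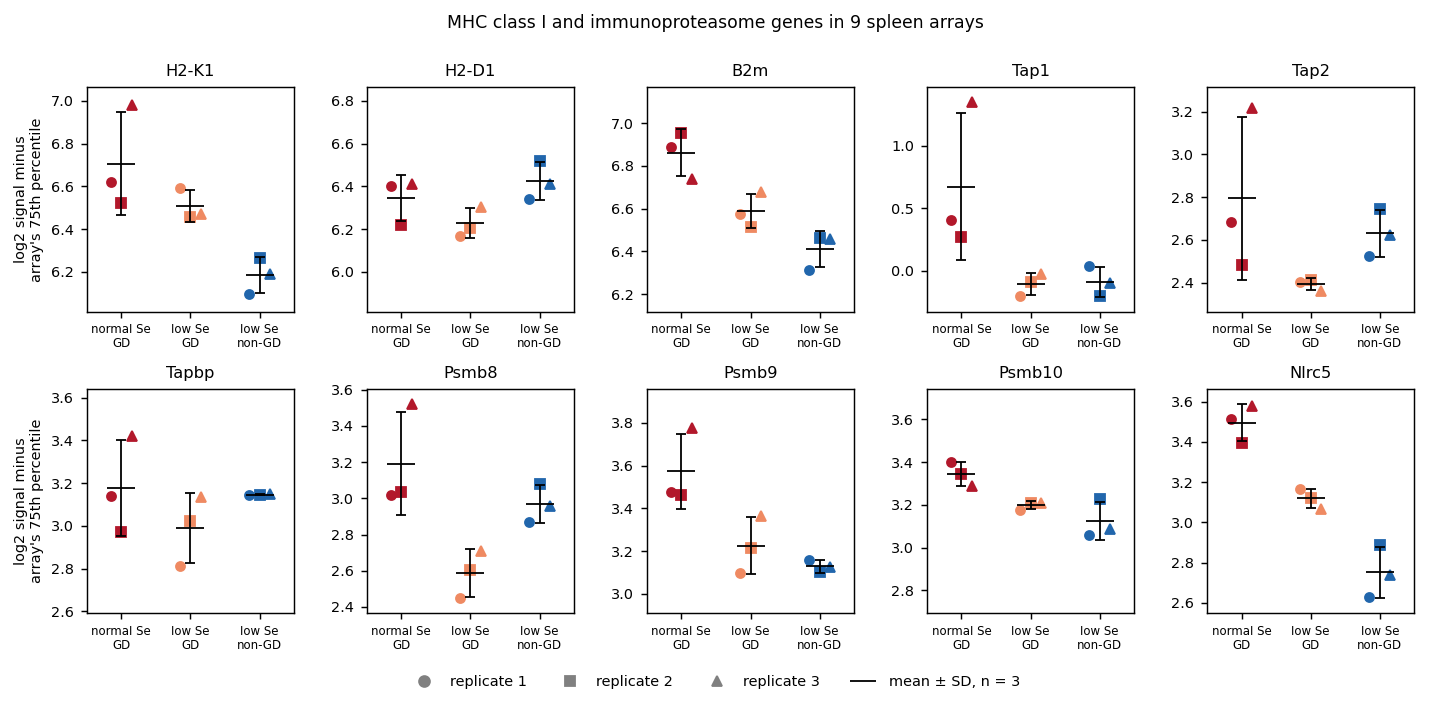
Scaled log2 signal (y axis, log2 of signal over the array's 75th percentile) of the 10 genes on each array. Each point is 1 array, groups run from normal Se GD through low Se GD to low Se non-GD, and each panel has its own scale, so that points compare within a panel only; Nlrc5 and B2m show 3 groups that do not overlap, and Tap1 shows normal Se GD replicate 3 at 1.35, far above the other arrays.

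Nlrc5, the activator of class I genes, read 3.51, 3.39 and 3.58 in normal Se GD spleens, 3.17, 3.12 and 3.07 in low Se GD spleens, and 2.63, 2.88 and 2.74 in low Se non-GD spleens. No array of any group overlapped another group, and the order ran from normal Se GD through low Se GD to low Se non-GD. The excess of normal Se GD over low Se non-GD was 0.74 on the log2 scale (SE 0.10, limma adjusted p = 0.00185), a 1.68-fold difference. Low Se GD exceeded low Se non-GD by 0.37 (SE 0.10, limma adjusted p = 0.0341), a 1.29-fold difference. That call was lost when any 1 low Se GD array, low Se non-GD replicate 1 or 3, or normal Se GD replicate 1 was left out, with limma adjusted p up to 0.116. It was also lost with the scan as a fixed block and between the arrays scanned together. There the difference was 0.42, and 1 low Se GD array, replicate 1, stood for its group. The call was lost too with the replicate number as a block (limma adjusted p = 0.0859) and with no filter (limma adjusted p = 0.0553). In all, 9 of 21 alternatives kept it. The excess of normal Se GD over low Se GD, 0.38 (SE 0.10), did not pass the threshold (limma adjusted p = 0.104). In the 2 arrays of each that were scanned together the difference was 0.36.

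A second Nlrc5 probe, A_66_P113043, was dim. It read -2.72, -2.60 and -2.14 in normal Se GD spleens, -2.76, -3.04 and -2.99 in low Se GD spleens, and -2.75, -2.91 and -2.93 in low Se non-GD spleens. The normal Se GD arrays lay above all others on this probe too, while low Se GD and low Se non-GD overlapped. Its difference of low Se GD from low Se non-GD was -0.07 (SE 0.17), opposite in sign to the brighter probe, A_55_P2016034, and 0.04 with quantile normalization. Its difference of normal Se GD from low Se non-GD was 0.38 (SE 0.17, limma adjusted p = 0.118 over 31868 probes). Averaged over both probes, Nlrc5 exceeded low Se non-GD by 0.15 in low Se GD (limma adjusted p = 0.384). The call in that comparison therefore rests on 1 probe.

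H2-K1 encodes a classical heavy chain, and its probe A_51_P198434 is spotted 10 times. It read 6.62, 6.52 and 6.98 in normal Se GD spleens, 6.59, 6.46 and 6.47 in low Se GD spleens, and 6.10, 6.27 and 6.19 in low Se non-GD spleens. All 6 GD arrays lay above all 3 low Se non-GD arrays, and the GD groups overlapped. Between normal Se GD and low Se non-GD the difference was 0.52 (SE 0.13, limma adjusted p = 0.0200), or 1.44-fold, and without normal Se GD replicate 3 it was 0.39 and still called. Leaving out replicate 1 or 3 of low Se non-GD ended this call (limma adjusted p = 0.0607 and 0.0660). Low Se GD exceeded low Se non-GD by 0.32 (SE 0.13, limma adjusted p = 0.120). With the scan as a random block the difference was 0.41 and was called (limma adjusted p = 0.0246). With the scan as a fixed block it was also 0.41, but there low Se GD replicate 1 alone is set against low Se non-GD.

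The other H2-K1 probe, A_55_P2049647, did not show this difference with the main scaling. It read 5.63, 5.47 and 5.74 in normal Se GD spleens, 5.56, 5.44 and 5.49 in low Se GD spleens, and 5.54, 5.64 and 5.61 in low Se non-GD spleens. The groups of normal Se GD and low Se non-GD overlapped, with a difference of 0.01 (SE 0.10). Among the alternatives, this probe was called higher in that comparison in 1 and turned sign in 2. Averaged over both probes, H2-K1 was 0.27 higher in normal Se GD than in low Se non-GD and was not called (limma adjusted p = 0.112). Class I heavy chain genes resemble each other closely and differ between strains, and the probe sequences were not analysed here, so which transcripts each heavy chain probe binds is uncertain.

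H2-D1, the other classical heavy chain measured, read 6.40, 6.22 and 6.41 in normal Se GD spleens, 6.17, 6.21 and 6.30 in low Se GD spleens, and 6.34, 6.52 and 6.41 in low Se non-GD spleens. All 3 low Se GD arrays lay below all 3 low Se non-GD arrays, by 0.20 in the means (log2 difference -0.20, SE 0.10, limma adjusted p = 0.190). Normal Se GD overlapped both other groups, and its difference from low Se non-GD was -0.08 (SE 0.10). Both H2-D1 differences from low Se non-GD turned positive with quantile normalization, at 0.11 for low Se GD and 0.37 for normal Se GD, neither called.

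B2m, the light chain that all classical heavy chains need to reach the surface, read 6.89, 6.96 and 6.74 in normal Se GD spleens, 6.58, 6.52 and 6.68 in low Se GD spleens, and 6.31, 6.46 and 6.46 in low Se non-GD spleens. No group overlapped another. B2m was 0.45 higher in normal Se GD than in low Se non-GD (SE 0.10, limma adjusted p = 0.0118), a 1.37-fold difference, and 0.51 higher without normal Se GD replicate 3. With the scan as a fixed block it was 0.49 and not called (limma adjusted p = 0.0659). Low Se GD exceeded low Se non-GD by 0.18 (SE 0.10, limma adjusted p = 0.238). The difference of normal Se GD from low Se GD was 0.27 (SE 0.10, limma adjusted p = 0.194), and 0.33 between the arrays scanned together.

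The size of these differences for bright probes depended on the scaling. Among the 460 genes with a mean scaled log2 signal of at least 6, to which B2m, H2-K1 and H2-D1 belong, the median difference of normal Se GD from low Se non-GD was -0.52, and with quantile normalization it was 0.05. With quantile normalization B2m exceeded low Se non-GD by 0.95 and H2-K1 by 0.97 in normal Se GD spleens, and by 0.52 and 0.63 in low Se GD spleens, all 4 called. In the authors' deposited table of log2 values, analysed in the same way, the normal Se GD differences were 0.98 for B2m and 1.01 for H2-K1, both called. The direction was the same for B2m and for the brighter H2-K1 probe under each scaling, while that of H2-D1 was not.

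**Figure D2:**
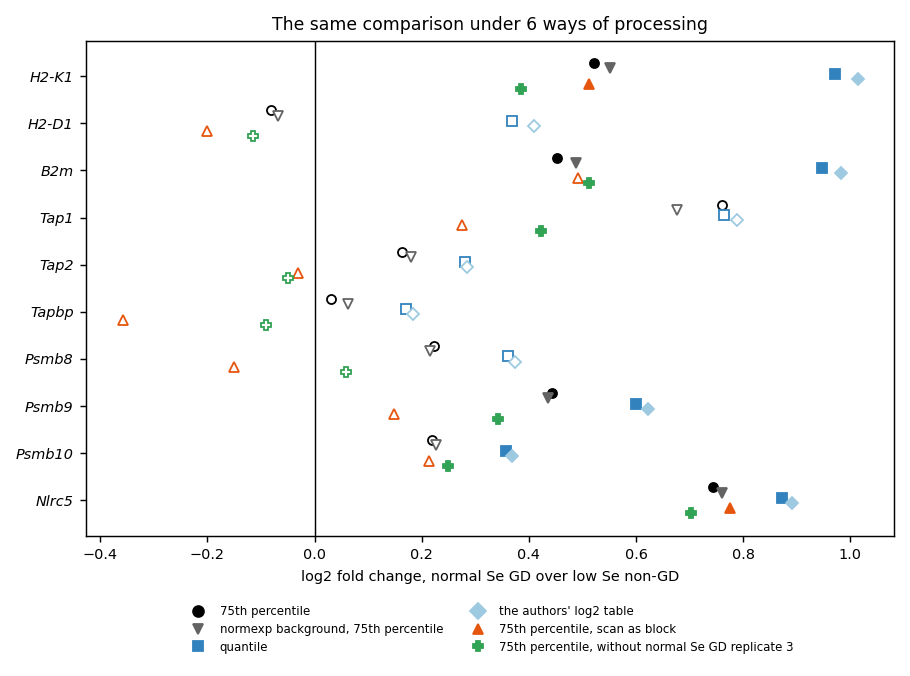
Log2 difference of normal Se GD from low Se non-GD (x axis) for the 10 genes under several ways of processing. These are the main scaling, normexp, quantile normalization, the authors' table, the scan as a fixed block, and the main scaling without normal Se GD replicate 3. Filled symbols passed an adjusted p under 0.05 and open ones did not; B2m and H2-K1 move right under quantile normalization and in the authors' table, and H2-D1 crosses 0.

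The start regions of both heavy chain genes and of B2m are shown because they hold the boxes through which class I transcription is known to be driven. They come from RefSeq on GRCm38.p6, a C57BL/6J assembly, so BALB/c mice may differ. Each runs from 250 bases before to 50 bases after the annotated start, 5′ to 3′ on the gene's strand. Capitals mark matches, on either strand, to the core of the class I NF-kB palindrome GGGATTCCC, the kappa NF-kB core GGGACTTTC, the interferon elements GAANNGAAA and GAAANNGAA, the X2 box core TGACGC and the Y box core CCAAT. H2-K1 lies at chr17:34000298-34000597 on the minus strand, H2-D1 at chr17:35262844-35263143 on the plus strand, and B2m at chr2:122147437-122147736 on the plus strand. H2-K1 has another annotated start, whose window at chr17:34000284-34000583 holds the same matches and is not printed. The last CCAAT lies at 8 to 12 from the start in the printed window and at -6 to -2 in the other.
H2-K1: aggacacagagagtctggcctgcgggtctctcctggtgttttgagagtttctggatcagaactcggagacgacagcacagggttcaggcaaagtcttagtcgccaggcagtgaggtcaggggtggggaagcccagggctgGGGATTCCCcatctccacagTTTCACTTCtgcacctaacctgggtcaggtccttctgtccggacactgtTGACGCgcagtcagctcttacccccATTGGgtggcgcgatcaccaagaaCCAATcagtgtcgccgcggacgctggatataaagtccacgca
H2-D1: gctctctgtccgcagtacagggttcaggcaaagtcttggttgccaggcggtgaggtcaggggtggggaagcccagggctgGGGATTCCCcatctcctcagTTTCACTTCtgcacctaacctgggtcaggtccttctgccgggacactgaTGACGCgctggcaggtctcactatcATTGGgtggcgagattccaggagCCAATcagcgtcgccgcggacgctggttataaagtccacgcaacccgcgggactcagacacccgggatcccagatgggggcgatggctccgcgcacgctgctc
B2m: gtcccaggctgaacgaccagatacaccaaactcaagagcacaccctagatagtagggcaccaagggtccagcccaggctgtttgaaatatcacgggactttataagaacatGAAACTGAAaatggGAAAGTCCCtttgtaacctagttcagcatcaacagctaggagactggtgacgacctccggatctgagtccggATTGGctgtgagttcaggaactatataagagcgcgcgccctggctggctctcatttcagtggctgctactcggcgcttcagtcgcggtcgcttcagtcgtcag

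H2-K1 and H2-D1 both held GGGATTCCC followed by the interferon element, here read as TTTCACTTC on the gene's strand, then TGACGC and 2 Y box cores. GGGATTCCC was in 116 of the 32851 start windows of this length, or 0.353%, GAANNGAAA in 7.52%, TGACGC in 7.40% and CCAAT in 37.4%. B2m held GAAANNGAA, found in 8.56% of windows, GGGACTTTC, found in 0.353%, and a Y box core. Windows were found for 8 of the 10 genes, Nlrc5 and Tap2 being the others. The matches describe the reference sequence only.

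Tap1, the transporter subunit whose probe is spotted 10 times, read 0.41, 0.27 and 1.35 in normal Se GD spleens, -0.20, -0.09 and -0.03 in low Se GD spleens, and 0.04, -0.20 and -0.09 in low Se non-GD spleens. The 3 normal Se GD arrays lay above the other 6, with replicate 3 far above its own group, and the low Se groups overlapped. Before scaling, the Tap1 signals of the normal Se GD arrays were close, at 944, 925 and 960, while the 75th percentiles of these arrays were 712, 769 and 377. The excess of normal Se GD was 0.76 over low Se non-GD (SE 0.26, limma adjusted p = 0.0593) and 0.78 over low Se GD (SE 0.26, limma adjusted p = 0.162). Without replicate 3 these differences were 0.42 (limma adjusted p = 0.0160) and 0.44, and the first of them was called. With the scan as a fixed block they were 0.27 (limma adjusted p = 0.255) and 0.39 (limma adjusted p = 0.0750), neither of them called. Low Se GD and low Se non-GD differed by -0.02 (SE 0.26), and by 0.01 in the authors' deposited table.

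Tap2, the partner subunit, read 2.68, 2.48 and 3.22 in normal Se GD spleens, 2.40, 2.41 and 2.36 in low Se GD spleens, and 2.53, 2.75 and 2.62 in low Se non-GD spleens. The low Se GD arrays were the lowest 3 of the 9, and normal Se GD overlapped low Se non-GD. Normal Se GD exceeded low Se GD by 0.40 (SE 0.18, limma adjusted p = 0.274). Its difference from low Se non-GD was 0.16 (SE 0.18), and -0.05 without normal Se GD replicate 3.

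Tapbp, which holds the transporter and the empty class I molecule together, read 3.14, 2.97 and 3.42 in normal Se GD spleens, 2.81, 3.02 and 3.13 in low Se GD spleens, and 3.14, 3.15 and 3.15 in low Se non-GD spleens. Normal Se GD overlapped both low Se groups. All 3 low Se GD arrays lay below all 3 low Se non-GD arrays, with a log2 difference of -0.16 (SE 0.14, limma adjusted p = 0.452). No Tapbp difference was called.

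Psmb8, the immunoproteasome subunit also called LMP7, read 3.02, 3.03 and 3.52 in normal Se GD spleens, 2.45, 2.60 and 2.71 in low Se GD spleens, and 2.87, 3.08 and 2.96 in low Se non-GD spleens. The low Se GD arrays were the lowest 3 of the 9, and the other groups overlapped. Normal Se GD exceeded low Se GD by 0.61 (SE 0.16, limma adjusted p = 0.0934), a 1.52-fold difference. That was 0.44 without normal Se GD replicate 3 and 0.37 between the arrays scanned together. The difference of low Se GD from low Se non-GD was -0.38 (SE 0.16, limma adjusted p = 0.115), and it was called lower without normal Se GD replicate 3 (limma adjusted p = 0.0171).

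Psmb9, also called LMP2, read 3.48, 3.46 and 3.78 in normal Se GD spleens, 3.10, 3.22 and 3.36 in low Se GD spleens, and 3.16, 3.10 and 3.13 in low Se non-GD spleens. Normal Se GD lay above both other groups, which overlapped. It exceeded low Se non-GD by 0.44 (SE 0.12, limma adjusted p = 0.0241), a 1.36-fold difference. The difference was 0.34 without normal Se GD replicate 3, and still called. Without any 1 of the 3 low Se non-GD arrays it was 0.43 to 0.46 and not called (limma adjusted p = 0.0519 to 0.0806). With the scan as a fixed block the difference was 0.15 (limma adjusted p = 0.390). Normal Se GD exceeded low Se GD by 0.35 (SE 0.12, limma adjusted p = 0.168), and by 0.18 between the arrays scanned together.

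Psmb10, the subunit also called MECL-1, read 3.40, 3.35 and 3.29 in normal Se GD spleens, 3.18, 3.21 and 3.21 in low Se GD spleens, and 3.06, 3.23 and 3.09 in low Se non-GD spleens. Normal Se GD again lay above both other groups, which overlapped. Its differences were 0.22 from low Se non-GD (SE 0.09, limma adjusted p = 0.0933) and 0.15 from low Se GD (SE 0.09, limma adjusted p = 0.411). Without normal Se GD replicate 3 the Psmb10 difference from low Se non-GD was 0.25 and was called (limma adjusted p = 0.0399).

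Tap1 and Psmb9 are transcribed away from each other, and their start windows on GRCm38.p6 share 275 bases. The Tap1 window is printed because both genes read higher in all normal Se GD arrays than in all other arrays, as Nlrc5, B2m and Psmb10 also did. Whether the shared bases bear on the levels of Tap1 and Psmb9 was not tested. The Tap1 window lies at chr17:34187306-34187605 on the plus strand, and capitals mark the Y box core.
Tap1: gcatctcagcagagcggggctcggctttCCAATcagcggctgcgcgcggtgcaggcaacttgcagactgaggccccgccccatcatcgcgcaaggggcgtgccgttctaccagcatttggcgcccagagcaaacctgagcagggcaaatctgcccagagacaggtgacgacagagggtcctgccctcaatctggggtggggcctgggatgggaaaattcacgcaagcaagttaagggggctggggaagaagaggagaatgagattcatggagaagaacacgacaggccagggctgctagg
None of the other 6 motifs searched was found in it. The Psmb8 window held the gamma-activated site TTCNNNGAA, found in 8.30% of windows, and Tapbp held 2 Y box cores.

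**Figure D3:**
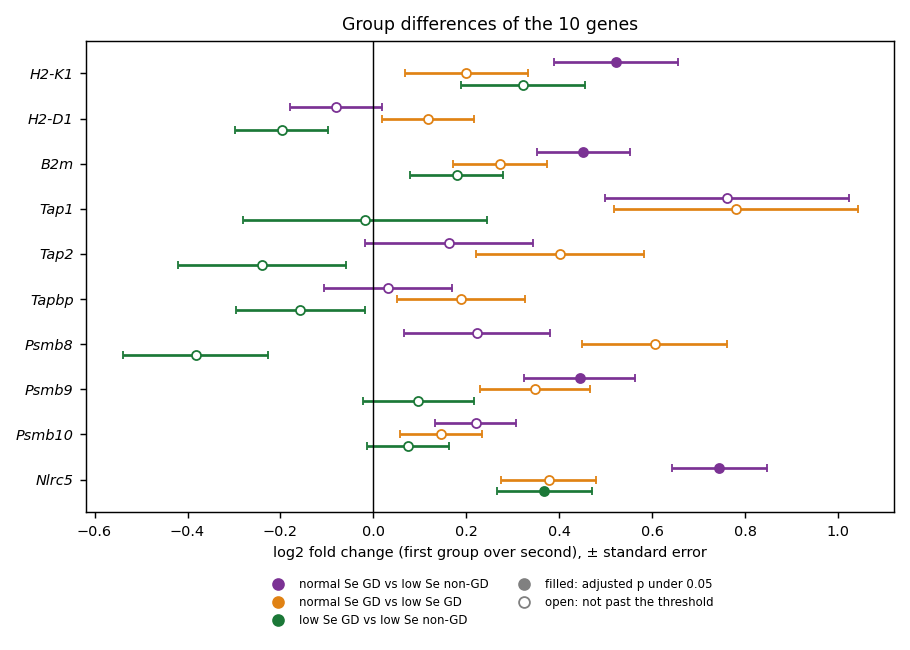
Log2 differences (x axis) of the 10 genes in the 3 comparisons, with bars of 1 standard error from limma. Filled symbols passed an adjusted p under 0.05 and open ones did not; all 10 points of normal Se GD against low Se GD lie above 0 and none is filled.

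All 10 genes had a positive difference of normal Se GD from low Se GD, where 13171 of the 26331 genes tested did. The 10 ran from 0.12 for H2-D1 to 0.78 for Tap1, with a median of 0.31, against 0.00 over all genes. For 7 of the 10, all 3 normal Se GD arrays lay above all 3 low Se GD arrays, which held for 17.9% of all genes. Normal Se GD replicate 3 was the highest of the 9 arrays for 7 of the 10 genes, against 27.8% of 18544 genes. Without it the 10 differences were still positive, at 0.06 to 0.44, with a median of 0.22 against 0.10 over all genes. Between the arrays scanned together, 9 of the 10 were positive, with a median of 0.19 against 0.12 over all genes, and Tapbp was at -0.02. With background correction by normexp the median was 0.26 against 0.16 over all genes. It was 0.45 against -0.03 with quantile normalization and 0.46 against -0.02 in the authors' table.

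Against low Se non-GD, the differences of low Se GD ran both ways, with 5 of the 10 positive and a median of 0.03, against 0.08 over all genes. Nlrc5, H2-K1 and B2m lay higher on all 3 low Se GD arrays, and H2-D1, Tap2, Tapbp and Psmb8 lay lower on all 3. That is 3 genes higher and 4 lower, where 29.5% and 23.5% of all genes were. Normal Se GD against low Se non-GD had 9 positive differences and a median of 0.33, against 0.06 over all genes, and 6 genes lay higher on all 3 arrays, where 28.0% of all genes did. Without normal Se GD replicate 3, 6 of the 10 genes were called higher in normal Se GD than in low Se non-GD, Tap1 and Psmb10 being the additional ones. In that setting 7170 of the 26331 genes were called higher, against 4980 with all arrays.

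**Figure D4:**
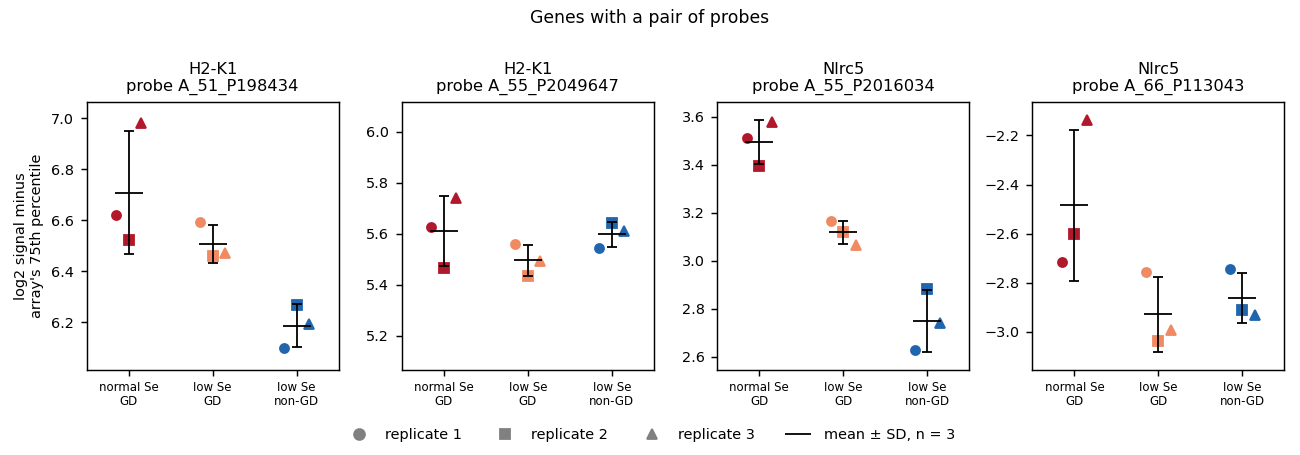
Scaled log2 signal (y axis) of both H2-K1 probes and both Nlrc5 probes on each array, by group. Each point is 1 array; the brighter H2-K1 probe sets the 6 GD arrays above the 3 low Se non-GD arrays and the other H2-K1 probe does not, and both Nlrc5 probes have the normal Se GD arrays highest.

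Of the 3 constitutive catalytic subunits that the immunoproteasome subunits replace, none was called by limma between normal Se GD and low Se GD, and 0 had an unadjusted p under 0.05. Psmb7 differed by 0.16 there, and Psmb5 by -0.03 and Psmb6 by -0.04, both of which turned positive with quantile normalization. Against low Se non-GD, Psmb7 was called in normal Se GD, at 0.29 (SE 0.09, limma adjusted p = 0.0372). That call was lost in 13 alternatives and kept in 7. Psmb6 was at -0.03 and Psmb5 at -0.13 in the same comparison, neither called and both positive with quantile normalization. Of 11 other subunits of the 20S core, 1 was called in each comparison with low Se non-GD, Psmb3, at 0.46 in normal Se GD and 0.46 in low Se GD. Of 10 proteasome activator and assembly genes, Psmg3, an assembly chaperone, was called higher at 0.56 in normal Se GD and 0.63 in low Se GD. Psme3, a proteasome activator subunit found in the nucleus, was called lower at -0.46 in normal Se GD. Its call was lost in 13 alternatives and kept in 7. Of 21 subunits of the regulatory particle that feeds proteins to the core, 5 were called higher and 3 lower in normal Se GD, and 4 higher and 1 lower in low Se GD, than in low Se non-GD. Over all genes tested, 18.9% were called higher and 13.4% lower in normal Se GD, and 12.7% and 12.2% in low Se GD. Psmd8, one of the 21 subunits, was called at 0.59 in normal Se GD and 0.40 in low Se GD. Its low Se GD call was lost in 13 alternatives and kept in 8. Adrm1, a ubiquitin receptor of the particle, was called lower at -2.79 in normal Se GD and -2.03 in low Se GD (SE 0.58 in each). Its low Se GD call was lost in 12 alternatives and kept in 9. Psmd4, another ubiquitin receptor, was called lower at -0.48 in normal Se GD, a call lost in 10 alternatives and kept in 10. Between normal Se GD and low Se GD limma called none of these 3 lists' genes, and 2 of the 11, 2 of the 10 and 1 of the 21 had an unadjusted p under 0.05. Of all genes, 12.7% were higher and 6.71% lower at such a p.

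Chaperones of the loading complex and peptide trimming enzymes complete the loading pathway. Of 13 tested, 7 were called higher in normal Se GD and none lower, and 7 were called higher and 1 lower in low Se GD, each against low Se non-GD. Among all genes, 18.9% were called higher and 13.4% lower in normal Se GD, and 12.7% and 12.2% in low Se GD. Calr (calreticulin), a lectin chaperone of the loading complex, exceeded low Se non-GD by 1.26 in normal Se GD (SE 0.10, limma adjusted p = 0.000335) and by 1.19 in low Se GD (SE 0.10, limma adjusted p = 0.000492). Erap1, the peptidase that trims peptides in the endoplasmic reticulum, exceeded it by 0.73 in normal Se GD and by 0.69 in low Se GD. Pdia3, a disulfide isomerase of the loading complex, was called at 0.60 in normal Se GD. Tapbpl, a tapasin relative that edits peptides, was called lower at -0.55 in low Se GD. None of the 13 was called by limma between normal Se GD and low Se GD, and 2 had an unadjusted p under 0.05. At such a p, 12.7% of all genes were higher and 6.71% lower.

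Of 18 other class I heavy chain genes tested, 5 were called higher and 1 lower in normal Se GD than in low Se non-GD, and 3 higher and 2 lower in low Se GD. The shares of all genes were 18.9% higher and 13.4% lower in normal Se GD, and 12.7% and 12.2% in low Se GD. H2-Q8, a non-classical heavy chain, was called at 0.96 in normal Se GD. Fcgrt, the heavy chain of the neonatal Fc receptor, was called at 1.12 in normal Se GD and 1.08 in low Se GD. H2-T3, the thymus leukemia antigen, was called at -0.86 in both. Mr1, which presents vitamin B metabolites, was the 1 gene of these 18 called between normal Se GD and low Se GD, at 0.66 (SE 0.10, limma adjusted p = 0.0438). That call was lost in 15 of 21 alternatives. Of all genes, 0.976% were called higher in this comparison.

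Of 23 regulators of class I transcription, 8 were called higher and 1 lower in normal Se GD than in low Se non-GD, and 5 higher and 1 lower in low Se GD. For all genes these shares were 18.9% higher and 13.4% lower in normal Se GD, and 12.7% and 12.2% in low Se GD. Irf2, an interferon regulatory factor, was called at 0.58 in normal Se GD and 0.74 in low Se GD. Rfxap, a subunit of the complex that binds the X box, was called at 0.70 in normal Se GD and 0.82 in low Se GD. Rfx5, another subunit of that complex, was the 1 of the 23 called between normal Se GD and low Se GD, at 0.55 (SE 0.09, limma adjusted p = 0.0438). This call was likewise lost in 15 of 21 alternatives. The share of all genes called higher there was 0.976%. Ifnar1, an interferon receptor chain, was called lower in normal Se GD and, at -3.04, in low Se GD, on the brightest of 3 probes.

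Of 10 MHC class II genes, which present antigen taken up from outside the cell, 6 were called higher in normal Se GD and 1 in low Se GD than in low Se non-GD spleens. For all genes tested the shares called higher were 18.9% and 12.7%. Between normal Se GD and low Se GD, 2 of the 10 were called higher in normal Se GD, against 0.976% of all genes. They were H2-DMb2 at 0.85 and H2-DMa at 0.53, chains of the molecule that loads class II. These calls were lost in 15 and 14 of 21 alternatives. Of 15 receptors that read class I on T and NK cells, 4 were called higher and 2 lower in each comparison with low Se non-GD. All genes had 18.9% called higher and 13.4% lower in normal Se GD, and 12.7% and 12.2% in low Se GD. Klra7 and Klra1, members of the Ly49 family, were the 2 called lower, at -3.98 and -1.57 in normal Se GD and -3.46 and -1.64 in low Se GD. Ly49 genes resemble each other closely and differ between strains, so which of them these probes read is uncertain.

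Marker genes of spleen cell types differed between the groups too. The mean level of 9 macrophage markers was 0.90 to 1.23 in normal Se GD, 0.79 to 0.94 in low Se GD and -0.42 to 0.19 in low Se non-GD spleens, and 8 of them were called higher in normal Se GD and 7 in low Se GD, each against low Se non-GD. In these comparisons 18.9% and 12.7% of all genes were called higher. The mean of 8 dendritic cell markers was 0.99 to 1.11 in normal Se GD, 0.64 to 0.74 in low Se GD and 0.39 to 0.46 in low Se non-GD spleens, the same order as Nlrc5 and B2m. The mean of 8 natural killer cell markers was -0.49 to -0.43 in normal Se GD, -0.72 to -0.54 in low Se GD and -1.60 to -1.30 in low Se non-GD spleens. The mean of 9 B cell markers was 2.27 to 2.40 in normal Se GD, 1.85 to 1.92 in low Se GD and 2.33 to 2.48 in low Se non-GD spleens, so that low Se GD was lowest, as for Psmb8 and Tap2. The mean of 10 T cell markers was 1.89 to 1.94 in normal Se GD, 1.79 to 1.91 in low Se GD and 1.54 to 2.28 in low Se non-GD spleens, and limma called none in any comparison, with 0 at an unadjusted p under 0.05. The mean of 9 erythroid markers was 1.97 to 2.13 in normal Se GD, 2.63 to 3.28 in low Se GD and 1.27 to 2.96 in low Se non-GD spleens. Fat cell markers were highest in low Se GD, with a mean over 6 genes of -4.67 to -4.24 in normal Se GD, -1.73 to 0.94 in low Se GD and -5.11 to -2.18 in low Se non-GD spleens. The part of these marker differences in the class I results was not tested.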

How the data were processed

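Total spleen RNA was, per the labels' protocols, labelled and hybridised by Agilent's 1-colour method. The deposited scanner files hold spot intensity on a linear scale, which the file headers give as background-subtracted output of Feature Extraction 11.0.1.1 on a design annotated on mm9, with 0 or 1 marks for background, saturation and outlier spots. A deposited table of log2 values served as an alternative; the sources used here do not state its making. In it, the columns of the 3 low Se non-GD samples matched another array of their own group better than their own.

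Here, log2 intensity had each array's 75th percentile over 43020 non-control spots subtracted. Outlier spots were left out, spots of a probe averaged, and the probe of highest mean taken for a gene. Probes were named by RefSeq accession (27234 of 39429). The test was limma 3.58.1 (R 4.3.3) on genes well above background on at least 3 of 9 arrays, all 9 arrays in 1 fit, with Benjamini-Hochberg adjustment at 0.05; 6081 genes were too dim and 39 had a missing value. The fit was tested on simulated data. The alternative with normexp (offset 50) used the median spot signal in place of the mean. Arrays of 1 scan stood for the slide block. The arrays' number limits the precision.

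Alternatives were other scalings, filters, probe rules, scan and replicate blocks, fits on 2 groups and left-out arrays. From each related list, up to 4 called genes per comparison with the largest differences could be named. The members and lists were chosen with earlier results of these data known. The values of 1 gene of the lists are not reported here.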

Additional observations from a re-analysis of the deposited data

How the results depend on the processing

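Of 620 repeats of the differences of the 10 genes under other settings, 558 kept direction and side of the threshold. A further 20 passed it in addition, 25 lost it and 17 turned sign. The cause was not tested for any of them. Sign could not turn with no filter, the filter on all 9 arrays, the replicate block or 2 groups only. In these, as with an array of the third group left out, the difference equals the main one. Most repeats started uncalled, as the main fit called 1, 0 and 4 of the 10 genes. Of the 25 lost, 12 were of Nlrc5 between the low Se groups. The others were of Psmb9 (6), H2-K1 (5) and B2m (2) in normal Se GD against low Se non-GD. The dimmer probes of Nlrc5 and H2-K1, A_66_P113043 and A_55_P2049647, turned sign in 5 and 4 further repeats. The comparison of the low Se groups, GD against non-GD, had 1 gene and 1 probe called higher. With the scan as a fixed block or within 1 scan, low Se GD replicate 1 alone is set against low Se non-GD. Both counts called higher were 3 with quantile normalization and in the authors' table, 2 with normexp, with the scan as a random block and in fits on 2 groups, and 0 with no filter, within 1 scan and without both in-between arrays. Over all 26331 genes, the calls higher were 3919 with quantile normalization, 3953 in the authors' table and 2248 with normexp. They were 3800 with the random block and 4788 in fits on 2 groups, against 3357 in the main fit. No filter gave 2790 of 32408 genes. With the mean over probes 0 of the 10 genes were called. The range for the 10 genes over left-out arrays was 0 to 2. Psmb8 was called lower with the scan as a random block, in the fit on 2 groups and without normal Se GD replicate 3. Between the GD groups (0 called), the filter on all 9 arrays gave 1 gene, Psmb8, and 2 probes. With that filter, 933 of all 18544 genes and 1585 of all 22351 probes were called higher. For normal Se GD against low Se non-GD (4 genes and 4 probes), both counts were 2 with the scan as a fixed block and 1 without both in-between arrays, and left-out arrays gave 2 to 6.

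With the replicate number as a block, 0 of the 10 genes and 0 of the 12 probes were called between the low Se groups. For normal Se GD against low Se non-GD 4 of the 10 genes were. Over all 26331 genes this block gave 2402 higher and 2749 lower calls between the low Se groups. It gave 4091 and 3096 for normal Se GD against low Se non-GD. Of all 31868 probes, 3042 were called higher and 3178 lower between the low Se groups. Deviations from the group means correlated at -0.21 to 0.10 between arrays of the same number and at -0.25 to 0.24 between arrays of different numbers. With so few arrays in a group, these correlations cannot decide whether the numbers pair the samples.

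Normexp put the median of all genes at -0.16 between the low Se groups and at 0.16 between the GD groups, where the main scaling had 0.08 and 0.00. Between the low Se groups it called 2248 genes higher and 3255 lower in GD, against 3357 and 3200. Over all genes, the 257 higher and 77 lower calls between the GD groups became 0 and 0 with normexp, no filter, the replicate block, 2 groups only or both in-between arrays left out. They were 32 and 14 with quantile normalization, 2 and 1 in the authors' table, 933 and 355 with the filter on all 9 arrays, 1244 and 470 with the fixed block, 1338 and 602 with the random block, 1530 and 1265 within 1 scan, and, over left-out arrays, 0 to 761 higher and 0 to 316 lower, the most without normal Se GD replicate 3. The calls between the low Se groups were 413 and 527 within 1 scan and 65 and 204 without both in-between arrays, and for normal Se GD against low Se non-GD, 4980 and 3535 calls became 2804 and 2749 with normexp, 3406 and 1423 with the fixed block and 1642 and 1403 without both in-between arrays. Over left-out arrays the calls higher ran from 1493 to 5891 between the low Se groups and from 3089 to 7170 for normal Se GD against low Se non-GD.

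Some differences turned sign. With quantile normalization and in the authors' table, H2-D1 was at 0.11 and 0.13 in low Se GD and at 0.37 and 0.41 in normal Se GD, against low Se non-GD. In the same settings, the difference between the low Se groups was 0.039 and 0.041 for Nlrc5 probe A_66_P113043, 0.13 and 0.13 for H2-K1 probe A_55_P2049647 and 0.034 and 0.041 for Psmb5. Between the GD groups it was 0.12 and 0.14 for Psmb6 and 0.11 and 0.12 for Psmb5. For normal Se GD against low Se non-GD it was 0.25 and 0.28 for Psmb6, 0.14 and 0.17 for Psmb5 and 0.13 and 0.14 for Cd79b, a B cell receptor chain. Between the low Se groups, Tap1 was at 0.0057 in the authors' table and Psmb5 at 0.0042 with normexp. With the scan as a fixed block, Tap2 was at -0.031, Tapbp at -0.36 and Psmb8 at -0.15 for normal Se GD against low Se non-GD, and Tapbp at -0.022 between the GD groups. With that block, as within 1 scan, the low Se groups differed by -0.033 for Psmb9, -0.11 for Psmb6 and 0.11 for the dim Nlrc5 probe. The random block gave -0.21 for Tapbp in normal Se GD against low Se non-GD, and -0.071 for Psmb6 and 0.096 for the dim Nlrc5 probe between the low Se groups. Over left-out arrays, differences ran across 0 between the low Se groups for Tap1 (-0.077 to 0.043) and Psmb6 (-0.030 to 0.060), between the GD groups for Psmb5 (-0.21 to 0.065), and for normal Se GD against low Se non-GD for Tap2 (-0.049 to 0.32), Tapbp (-0.090 to 0.13) and H2-K1 probe A_55_P2049647 (-0.052 to 0.086). Psmb6 was at -0.024 between the low Se groups without both in-between arrays.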

Other observations

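Over the 9 arrays, the named non-member genes whose levels followed the mean standardised level of the 10 genes most closely, of 13359 searched, were Ltbp2 (Pearson r = 0.987), Siah2 (0.986), Ahrr (0.982), Swap70 (0.980) and Htra1 (0.978). These values describe arrays that share their groups and scaling, with normal Se GD replicate 3 highest in the mean level at 1.58 SD. Swap70, a B cell signalling protein, exceeded low Se non-GD by 0.63 in normal Se GD and by 0.04 in low Se GD. Siah2, a ubiquitin ligase, exceeded it by 0.57 in normal Se GD and by 0.06 in low Se GD. Both were picked for following the 10 genes on these arrays, so their group differences are a description and no separate result.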
